A study of Ovis aries with 6 samples.

Results

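The genes described here are 10 neuropeptide and neuropeptide receptor genes, followed in sheep fat taken from around the kidney (perirenal adipose tissue) before and after birth. They are the tachykinin precursor gene TAC1 and the tachykinin receptor genes TACR1 and TACR2, the neuropeptide Y gene NPY and its receptor genes NPY1R and NPY5R, CALCRL and RAMP1, which together form the receptor for calcitonin gene-related peptide (CGRP), and the receptor genes VIPR1 and VIPR2 for vasoactive intestinal peptide (VIP). All 10 names were found once each among the 24390 genes of the deposited table. The set was selected on the rise of TAC1 counts from fetus to lamb, so the values of TAC1 are given as a description and without a test. The other 9 genes were added by family, with earlier results of these data known.

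RNA was sequenced from 3 fetuses and 3 lambs, each library from a different animal. All were untreated, wild-type, pure-bred Merino sheep. The fetuses were taken 132 ± 1 days after conception, and term in sheep is given as 150 days. The age of the lambs is stated in 3 ways, namely 12 weeks, 80 days from birth and 89 ± 7 days from birth, and their sample titles carry the letters VEH, which the sources used here do not explain. The tissue was whole fat, so that fewer cells of a type and less RNA per cell cannot be told apart for any gene. Library totals ran from 15907128 to 19150428 counts. Of 6 adipocyte markers tested, 5 rose and 1 (PLIN1) did not pass the test, and their summed level was 13235 to 16560.1 CPM in fetuses and 27117 to 37664 CPM in lambs. CPM is the usual library-size-scaled count, here computed with TMM factors that adjust for differences in library composition. With scaling by library totals alone, the median log2 difference of all genes was 0.46, against -0.01 with TMM, so differences below are relative to the TMM baseline.

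Neuropeptides are short signals cut from larger precursor proteins. In peripheral tissue they are released mainly by nerve endings and act through G protein-coupled receptors. TAC1 encodes the precursor of substance P and neurokinin A, peptides of sensory nerves that widen vessels and drive neurogenic inflammation. Neuropeptide Y is stored with noradrenaline in sympathetic nerves, which supply fat and its vessels, and through the Y1 receptor it contracts vessels and restrains lipolysis. CGRP and VIP relax vessels.

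TAC1 (ENSOARG00000004619, chromosome 4, 14889516 to 14897252 on Oar v3.1) was near the bottom of the measurable range in fetuses and well above it in lambs. The fetal libraries held 17, 16 and 12 TAC1 counts and the lamb libraries 1019, 1841 and 635. In CPM these were 1.02, 1.18 and 0.716 in fetuses and 50.3, 95.5 and 31.7 in lambs. The stages did not overlap, and the lowest lamb value was 27.0 times the highest fetal value. The means were 0.970 ± 0.234 CPM (SD, n = 3) in fetuses and 59.2 ± 32.8 CPM (SD, n = 3) in lambs, a ratio of 61.1. The fitted log2 difference, lamb minus fetal, was 5.94 ± 0.50 (SE), which put TAC1 at rank 22 from the top among the 13624 genes tested. The lambs also differed among themselves, by a factor of 3.01 between lamb libraries 2 and 3, and lamb library 2 held 52.7% of the TAC1 counts of its stage. Without lamb library 2 the log2 difference was 5.41.

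**Figure D1:**
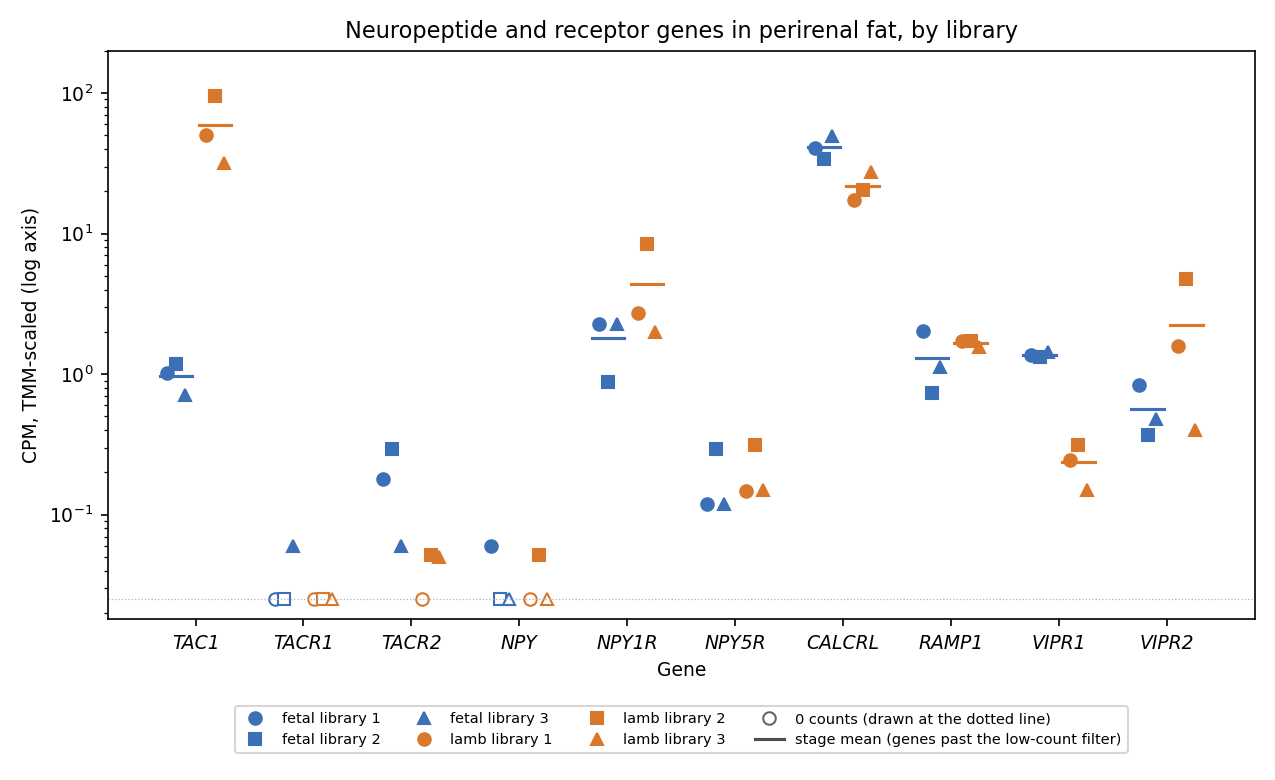
Level of each of the 10 genes in each library, as TMM-scaled CPM on a log axis; blue marks are fetal and orange marks lamb libraries, open marks on the dotted line stand for 0 counts, and bars are stage means of the 6 genes that passed the low-count filter. TAC1 lies between 31.7 and 95.5 CPM in lambs and between 0.716 and 1.18 CPM in fetuses, while the receptors for its peptides lie at or near 0 counts.

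The receptor genes of the TAC1 peptides were almost without counts. TACR1 (ENSOARG00000012923, chromosome 3, 96753570 to 96922228), which encodes the preferred receptor of substance P, had 0, 0 and 1 counts in fetuses and 0 in each lamb. With no count, levels of up to 0.148, 0.156 and 0.150 CPM remain possible in lamb libraries 1, 2 and 3 (3 counts of the scaled library, for counting error only). No fold is given for TACR1, since both stages lie under that limit. TACR2 (ENSOARG00000005561, chromosome 25, 25559135 to 25569634), the neurokinin A receptor gene, had 3, 4 and 1 counts in fetuses and 0, 1 and 1 in lambs. With 8 counts against 2, the ratio of lamb to fetal rates was 0.198, with a 95% interval for counting error of 0.0205 to 0.991. That interval leaves out the spread between animals, and without a low-count filter TACR2 did not pass (edgeR adjusted p = 0.161). TACR3, the neurokinin B receptor gene and the remaining gene of the tachykinin family that was found by name, had 10 counts in fetuses and 6 in lambs. Thus in lambs the precursor gene stood at 31.7 CPM or more, whereas each of the 3 receptor genes had at most 3 counts in a lamb library.

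TACR1 reads otherwise in the authors' RPKM columns (read level scaled by gene length and library size), where it stood at a mean of 5.51 in fetuses and 8.38 in lambs. The reads behind those RPKM values are therefore not those in the count columns, and the sources used here do not say which reads were added. For TACR2 the authors' mean RPKM was 0.471 in fetuses and 0.467 in lambs, a ratio of 0.992, so its lower lamb counts had no match there. TAC1 is touched by the same discrepancy to a lesser degree than TACR1. Dividing its counts by its RPKM and the library total gave an apparent length of 121 bp in fetal library 1 and 185, 237 and 209 bp in the lambs, a 1.96-fold range for what should be a constant. For CALCRL the same quotient varied 1.06-fold, whereas for VIPR1 it was 1096 bp in fetal library 1 and 639, 865 and 759 bp in the lambs, and for VIPR2 396 bp and 697, 651 and 499 bp. By the authors' RPKM means TAC1 was 5.59 in fetuses and 328 in lambs, a ratio of 58.8. RPKM is scaled by library totals, and on that scaling the log2 difference of TAC1 counts was 6.43.

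Per unit of gene length, the scale on which genes can be set side by side, the authors' mean RPKM placed CALCRL at 19.9 in fetuses, above TAC1, TACR1 and RAMP1 at 5.59, 5.51 and 4.62. In lambs TAC1 came first at 328 RPKM, followed by CALCRL at 13.4, TACR1 at 8.38, RAMP1 at 6.72, VIPR2 at 4.16 and NPY1R at 3.11. TACR2, VIPR1, NPY5R and NPY were under 1 RPKM in lambs. These are the authors' means, and the places of TACR1, TACR2, TAC1, NPY1R, VIPR1 and VIPR2 rest partly or wholly on reads that the counts do not hold. For TACR2 the apparent length was 265 bp in fetal library 1 and 0, 145 and 107 bp in the lambs. For NPY1R it was 1435 bp in fetal library 1 and 1269.6, 1826 and 1864 bp in the lambs.

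Of the 10 genes, 6 passed the low-count filter and 4 did not (TACR1, TACR2, NPY and NPY5R). Among the 5 tested genes other than TAC1, 2 fell (CALCRL and VIPR1) and 3 did not pass the test (NPY1R, RAMP1 and VIPR2), at an adjusted p below 0.05 by edgeR's quasi-likelihood test. Of all 13624 genes tested, 44.7% passed in either direction and 22.7% downward, so a share of 2 in 5 is near the background. The same 2 genes were those whose stages did not overlap, as in 57.7% of all tested genes in either direction and 29.5% downward. VIPR1 passed the filter through its fetal counts, and a gene that is low in lambs could enter the test in that way alone.

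**Figure D2:**
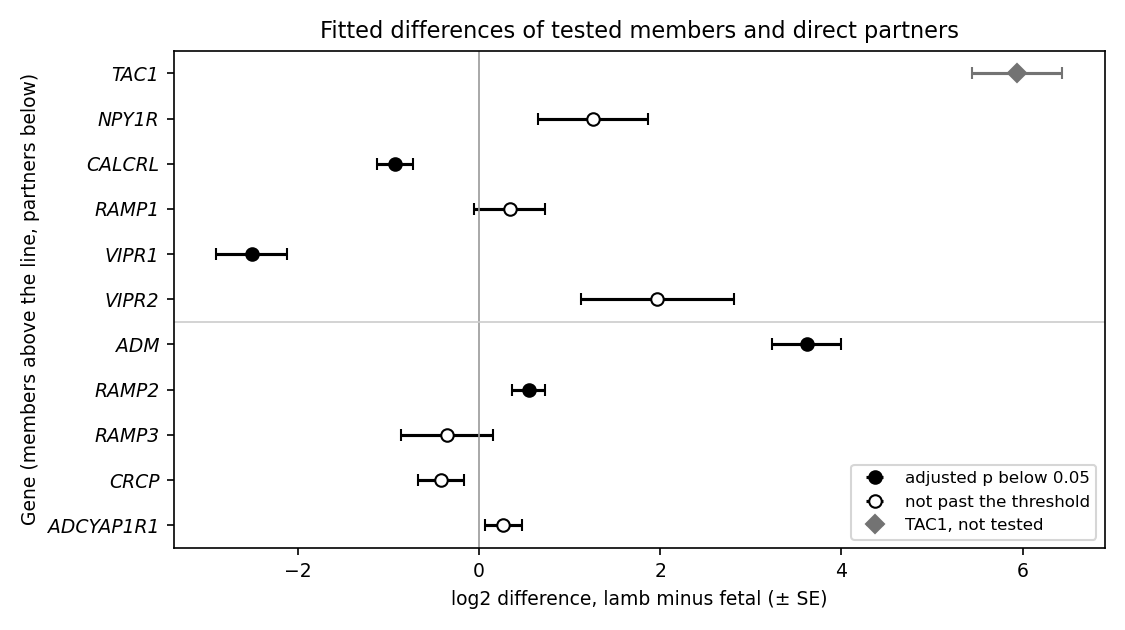
Fitted log2 difference, lamb minus fetal, with its SE for the 6 tested members (above the line) and for the 5 tested genes of their direct partners (below it); filled points passed an adjusted p of 0.05 and the grey diamond is TAC1, which was not tested. CALCRL and VIPR1 lie below 0, and ADM and RAMP2 above it.

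NPY (ENSOARG00000010915, chromosome 4, 71587493 to 71593121) had 1 count in the 3 fetal libraries together and 1 in the 3 lamb libraries together. Transcripts of sympathetic neurons lie mainly in cell bodies outside the fat, and the counts give the level of the transcript in the tissue, not of the peptide in nerve endings. NPY1R (ENSOARG00000013669, chromosome 6, 2589368 to 2596986), the Y1 receptor gene, was at 2.27, 0.883 and 2.27 CPM in fetuses and at 2.72, 8.41 and 2.00 CPM in lambs. The stages overlapped, with lamb library 3 below 2 of the 3 fetal libraries, and lamb library 2 stood apart from the other lambs. The log2 difference of NPY1R was 1.26 ± 0.61 (edgeR adjusted p = 0.128), and without lamb library 2 it was 0.37 (adjusted p = 0.55). With scaling by library totals alone NPY1R passed, at 1.71 (adjusted p = 0.0367).

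NPY5R (ENSOARG00000000234, chromosome 6, 2564603 to 2565943), the Y5 receptor gene, lies next to NPY1R in the table's coordinates, with 23424 bp between them. It had 2, 4 and 2 counts in fetuses and 3, 6 and 3 in lambs, 8 against 12 in all. The ratio of lamb to fetal rates was 1.19, with a 95% counting interval of 0.446 to 3.35, so a difference was not detectable at this depth. Among relatives of the family, NPY4R had 4 counts in fetuses and 12 in lambs (ratio 2.37, counting interval 0.719 to 10.1). PYY, which encodes a gut peptide of the same family, and NPY2R had 0 counts in all 6 libraries.

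CALCRL (ENSOARG00000016547, chromosome 2, 120920134 to 120966449) encodes the receptor that answers CGRP when paired with RAMP1 and adrenomedullin when paired with RAMP2 or RAMP3. It was at 40.7, 33.9 and 49.1 CPM in fetuses and at 17.3, 20.3 and 27.3 CPM in lambs. All 3 lamb values lay below all 3 fetal values. CALCRL fell by 0.93 ± 0.20 on the log2 scale (edgeR adjusted p = 0.00814). With scaling by library totals alone the difference was -0.48 and the call was lost (adjusted p = 0.135). CALCRL is strongly expressed in endothelium. Of 9 tested blood endothelial markers, 1 rose, 3 fell and 5 did not pass (median log2 difference 0.05), and their summed level was 1677 to 2072 CPM in fetuses and 1716 to 1850.3 CPM in lambs. The part of endothelial content in the fall of CALCRL was not tested.

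RAMP1 (ENSOARG00000018990, chromosome 1, 3088908 to 3120690) encodes the partner protein that makes CALCRL a CGRP receptor. Its level was 2.03, 0.736 and 1.13 CPM in fetuses and 1.73, 1.71 and 1.55 CPM in lambs. Fetal library 1 was above all lambs and the other fetal libraries below them. The log2 difference of 0.34 ± 0.39 did not pass (edgeR adjusted p = 0.509), and it was 0.08 without fetal library 2 and 0.81 without fetal library 1. The CGRP precursor gene CALCA had 0 counts in fetuses and 0, 2 and 1 in lambs.

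ADM, which encodes adrenomedullin, a vessel-widening peptide induced by low oxygen, stood at 63.1, 88.6 and 36.3 CPM in fetuses and 888, 912 and 506 CPM in lambs. All lamb values lay above all fetal values, and the mean was 12.3 times as high in lambs. ADM rose by 3.62 ± 0.38 on the log2 scale (edgeR adjusted p = 0.000352). RAMP2, the partner that turns CALCRL into an adrenomedullin receptor, went from 75.0, 86.7 and 96.2 CPM to 99.9, 127 and 149.9 CPM. RAMP2 rose by 0.55 ± 0.18 (edgeR adjusted p = 0.0374), a call that was lost without fetal library 1, fetal library 2, lamb library 2 or lamb library 3 (adjusted p up to 0.121). RAMP3 (log2 difference -0.35 ± 0.51) and CRCP, a CGRP receptor component (-0.42 ± 0.25), did not pass. Of the 9 genes listed as CGRP and adrenomedullin partners, 7 were found and 4 tested, of which 2 rose and 0 fell, with a median log2 difference of 0.10.

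VIPR1 and VIPR2 encode receptors that respond to both VIP and PACAP and raise cyclic AMP. VIPR1 (ENSOARG00000003378, chromosome 19, 14585909 to 14616037) had 23, 18 and 24 counts in fetuses and 5, 6 and 3 in lambs. In CPM these were 1.37, 1.32 and 1.43 against 0.247, 0.311 and 0.150. The fetal values were within 1.08-fold of each other and all lambs lay below them. VIPR1 fell by 2.51 ± 0.39 on the log2 scale (edgeR adjusted p = 0.0018), with -2.75 to -2.05 in the 13 alternatives that tested it. It had entered the test through its fetal counts alone. By the authors' mean RPKM, VIPR1 was at 1.23 in fetuses and 0.373 in lambs. VIP itself followed the same order at lower depth, with 5, 4 and 6 counts in fetuses and 1, 0 and 1 in lambs. The rate was 9.48 times as high in fetuses, with a 95% counting interval of 2.20 to 85.4.

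VIPR2 (ENSOARG00000010363, chromosome 4, 119039321 to 119101756) was at 0.837, 0.368 and 0.477 CPM in fetuses and at 1.58, 4.77 and 0.400 CPM in lambs. Lamb libraries 1 and 2 were above all fetuses, and lamb library 3 was within the fetal range. The log2 difference of 1.97 ± 0.84 did not pass (edgeR adjusted p = 0.0908). It passed without lamb library 3 (2.47, adjusted p = 0.017), with library totals alone (2.45, adjusted p = 0.0248) or with DESeq2 (2.02, adjusted p = 0.0358), and without lamb library 2 it was 0.80 (adjusted p = 0.39). PACAP (ADCYAP1) had 1 count in all, in a fetal library, and the gene of its specific receptor, ADCYAP1R1, averaged 5.60 ± 1.01 CPM before and 6.75 ± 0.443 CPM after birth (SD, n = 3), with a log2 difference of 0.27 ± 0.20 that did not pass (edgeR adjusted p = 0.301).

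TAC1, NPY1R and VIPR2 were each highest in lamb library 2 among the lambs. VIPR1 was too, but with 5, 6 and 3 counts in lamb libraries 1, 2 and 3. Lamb library 2 stood at 2.33, 3.56 and 4.82 times the mean of the other lambs for TAC1, NPY1R and VIPR2. CALCRL was highest in lamb library 3, and RAMP1 varied 1.12-fold among lambs. Lamb library 2 was also set apart by the summed markers of pericytes and smooth muscle, the contractile cells of vessel walls, mainly through the smooth muscle genes. Their summed level was 1543 CPM in lamb library 2, against 408 and 492 CPM in the other lambs and 521 to 802 CPM in fetuses. Within that list the smooth muscle genes MYH11, DES, TAGLN, CNN1 and LMOD1 were highest in lamb library 2, MYH11 being at 589 CPM there and at 85.7 and 113 CPM in the other lambs. NOTCH3 and CSPG4, at 51.8 and 31.9 CPM, were lower there than in the other lambs. ABCC9, at 39.4 CPM, lay between the other lambs, and KCNJ8, at 35.7 CPM, was above them. Of 9 tested markers of the list, 2 rose, 2 fell and 5 did not pass. Summed lymphatic endothelial markers were also highest in lamb library 2, at 154 CPM, against 71.2 and 88.4 CPM in the other lambs. In fetuses they were at 39.4 to 60.8 CPM. Mesothelial markers summed to 21.5 CPM in lamb library 2, against 11.1 and 5.90 CPM in the other lambs and 13.8 to 40.8 CPM in fetuses. The part of smooth muscle, lymphatic or mesothelial content in the TAC1, NPY1R and VIPR2 values was not tested.

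**Figure D3:**
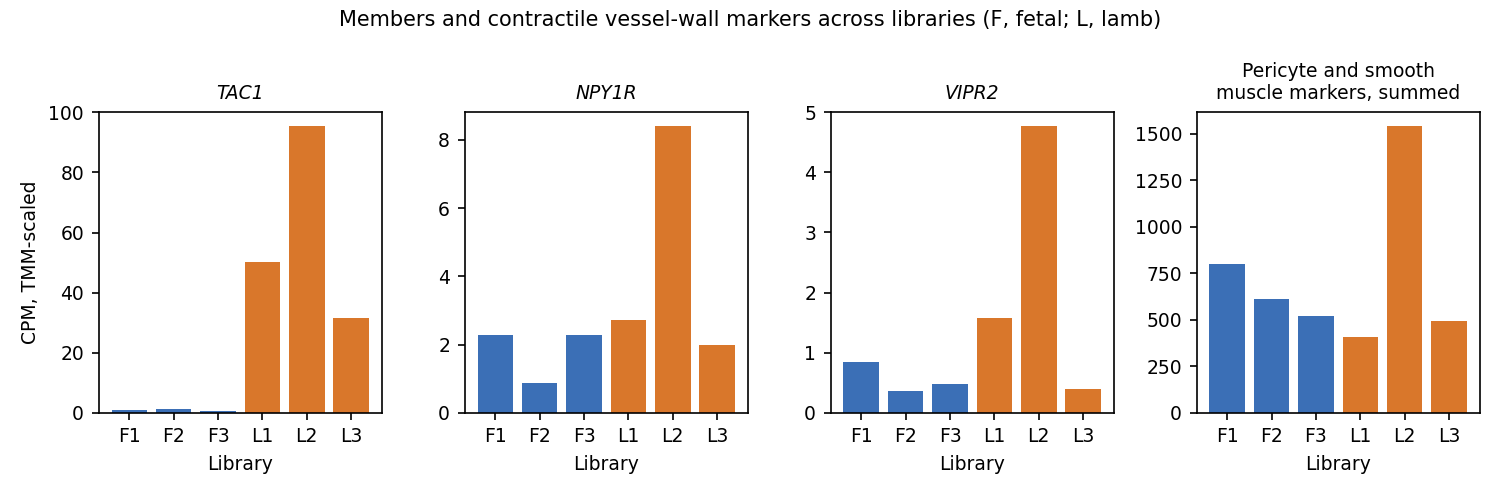
TAC1, NPY1R, VIPR2 and the summed pericyte and smooth muscle markers in each library as TMM-scaled CPM (bars, 1 per library; F fetal in blue, L lamb in orange; axes start at 0 and differ between panels). Lamb library 2 is highest in all 4 panels, with a summed marker level of 1543 CPM, and TAC1 is higher in the other lambs too than in any fetus.

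Fetal library 2 was the lowest of the fetal libraries for all 5 tested members other than TAC1, also with scaling by library totals alone. The margin was small for VIPR1, at 1.32 CPM against 1.37 and 1.43 CPM, and VIPR2 rested on 5 counts against 14 and 8. It was also lowest of the fetal libraries for the summed fibroblast markers, at 6238 CPM against 12541 and 9421 CPM, and for macrophage markers, at 179.9 CPM against 269 and 403 CPM. Its red cell markers were highest, at 1273 CPM against 617 and 358 CPM, as were its adipocyte markers, at 16560.1 CPM against 13235 and 14159.9 CPM. The part of this in the members' spread was not tested.

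Markers of nerves were measured as well. For sensory nerve, 4 of 6 markers were found, none passed the low-count filter, and their summed level was 0.221 to 0.717 CPM in fetuses and 0.200 to 0.467 CPM in lambs. SCN10A, a sodium channel gene of pain-sensing neurons, had 0 counts in the 3 lambs. For sympathetic nerve and the chromaffin cells of the adrenal medulla, 12 of 14 markers were found, 4 were tested and 0 passed, with sums of 9.34 to 20.5 CPM in fetuses and 7.51 to 14.6 CPM in lambs. DBH, which makes noradrenaline, had 0 counts in all 6 libraries, and PNMT had 0, 7 and 2 counts in lambs. Lamb library 2 held 9 counts of the neuronal gene STMN2 and 19 of the noradrenaline transporter gene SLC6A2, against 0 and 3 in lamb library 1 and 0 and 2 in lamb library 3. Among 8 Schwann cell markers 2 rose, 1 fell and 5 did not pass, and S100B, which adipocytes express too, made up most of their sum in lambs (154 to 224 CPM, against 56.6 to 62.5 CPM in fetuses). The defining Schwann cell gene SOX10 was at 3.11 to 4.30 CPM in fetuses and 3.66 to 4.62 CPM in lambs.

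Immune markers are given because leukocytes can make tachykinins and carry VIP receptors. Macrophage markers were higher in lambs, 6 of 9 tested having risen and 0 fallen (median log2 difference 1.24), with sums of 179.9 to 403 CPM in fetuses and 1291 to 1603 CPM in lambs, of which MRC1 held the greatest part. T and NK cell markers summed to 8.61 to 14.7 CPM in fetuses and to 31.1, 20.2 and 7.30 CPM in lamb libraries 1, 2 and 3, and 1 of 7 tested rose. The part of these cells in the level of TAC1 or the VIP receptors was not tested. Urothelial markers, 7 of 7 tested, were lower in lambs (39.6 to 133 CPM in fetuses, 0.395 to 0.467 CPM in lambs). Of all genes tested, 22.7% were called lower. The 7 genes had 0 to 6 counts in each lamb library and passed the low-count filter through the fetal libraries alone. They could therefore hardly have been called higher, and the count of 7 in 7 supports no direction. Whether the fetal samples held more of a neighbouring tissue was not tested. Adrenal cortex markers summed to 19.7 to 31.9 CPM in fetuses and 32.4 to 45.7 CPM in lambs, with 1 of 3 tested higher. STAR made up most of that sum, at 18.2 to 30.3 CPM in fetuses and 27.6 to 43.8 CPM in lambs. Its stages overlapped and it did not pass (edgeR adjusted p = 0.0702). The gene called was NR5A1, with 3, 4 and 2 counts in fetuses and 14, 17 and 16 in lambs. NR5A1 passed the low-count filter through the lambs alone. Kidney markers summed to 3.16 to 5.08 CPM in fetuses and 3.01 to 6.10 CPM in lambs, with 0 of 3 called.

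The genes whose pattern over the 6 libraries lay nearest to that of TAC1 were AOX1, KCNK3, TRPM2, PDK4 and PLAUR. Likeness was measured as the root mean square distance between centred log2 CPM values, and it was 0.49, 0.52, 0.58, 0.62 and 0.63 for them, against a median of 2.89 over the 11707 genes with a symbol. AOX1, an aldehyde oxidase gene, went from 63.2, 59.7 and 30.0 CPM in fetuses to 1675, 1855 and 1483 CPM in lambs. TRPM2, which encodes a calcium-permeable channel opened by oxidative stress, went from 7.53, 7.06 and 7.64 CPM to 588, 381 and 128 CPM. PLAUR, the urokinase receptor gene, was at 0.359, 0.294 and 0.776 CPM in fetuses and at 23.1, 74.5 and 27.0 CPM in lambs, with lamb library 2 highest, as for TAC1. The log2 values were centred but not scaled, so the distance follows mainly the size of the stage difference, on which TAC1 was selected. Among lambs AOX1 was also highest in library 2, KCNK3 and TRPM2 in library 1 and PDK4 in library 3. These genes were picked for their likeness, so the likeness is a description.

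The wider neuropeptide system was followed in 9 lists of 134 genes, of which 114 were found by name and 53 could be tested. Of these, 16 rose, 9 fell and 28 did not pass, that is 25 calls in 53, beside 22.0% of all tested genes higher and 22.7% lower. Most other precursor genes had few counts, 6 of the 27 found passing the filter. Of those 6, 4 rose, 1 fell and 1 did not pass, with a median log2 difference of 2.95. The low-count filter decided the sign of that median, which was -0.70 without the filter, and it was 1.60 to 3.18 with 1 library left out (1.60, 1.85, 1.74 and 1.61 without fetal library 1, 2 or 3 or lamb library 3). TRH, NTS and PTHLH had 0 to 5 counts in each fetal library and passed the filter only through the lambs, so the count of 4 in 6 supports no direction for precursor genes.

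TRH, which encodes thyrotropin-releasing hormone, had 0, 0 and 1 counts in fetuses and 14, 110 and 71 in lambs. All lambs lay above all fetuses, and the fitted log2 difference of 6.88 ± 1.20 (edgeR adjusted p = 0.00301) rests on that 1 fetal count and depends on the prior count. NTS, the neurotensin gene, rose by 4.09 ± 0.57 (edgeR adjusted p = 0.00113), from 0.133 ± 0.0814 to 2.31 ± 0.930 CPM (SD, n = 3). PTHLH, which encodes parathyroid hormone-related protein, rose from 0.173 ± 0.155 to 2.04 ± 0.50 CPM. PNOC, the nociceptin precursor gene, fell from 42.0 ± 0.102 to 22.1 ± 6.35 CPM (log2 difference -0.93 ± 0.21, edgeR adjusted p = 0.00869), a call that was lost with library totals alone (-0.45, adjusted p = 0.13). GAL, the galanin gene, was the remaining call, at 2.37 ± 0.51.

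**Figure D4:**
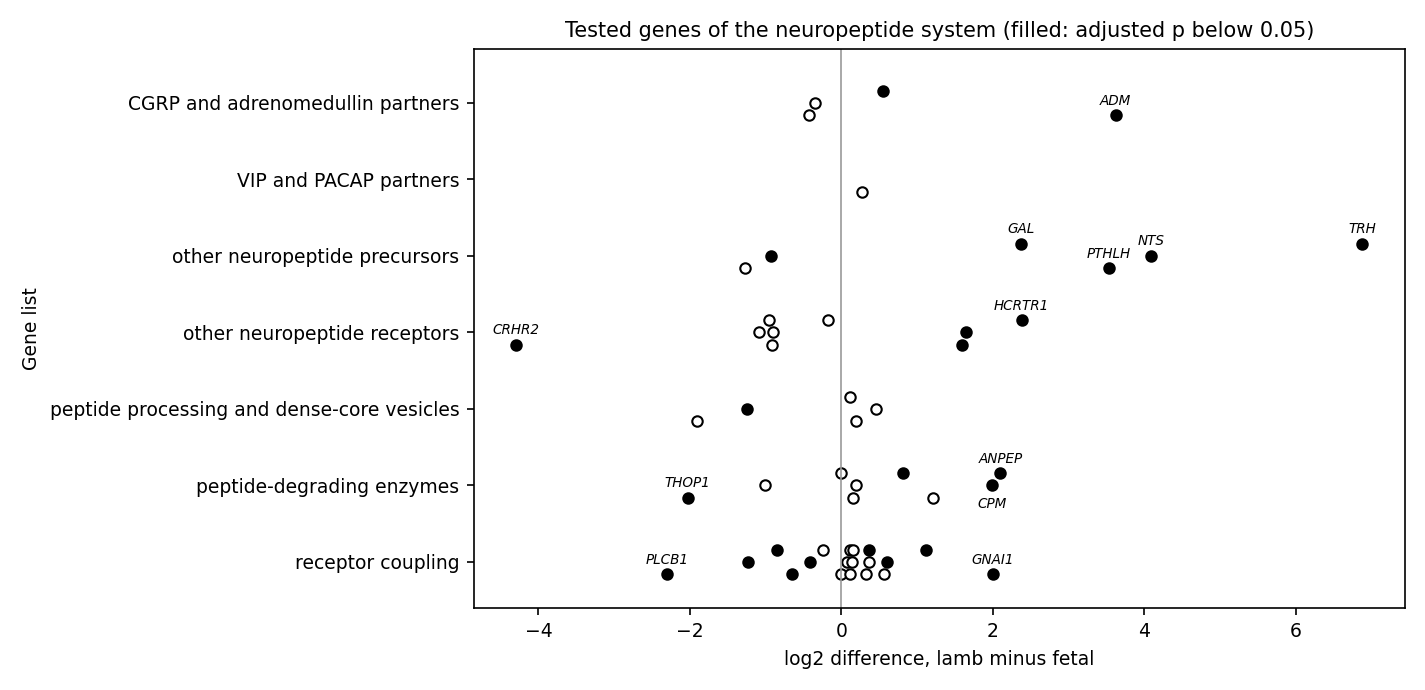
Fitted log2 differences, lamb minus fetal, of the tested genes in 7 lists of the neuropeptide system (1 point per gene, offset vertically for legibility; filled points passed an adjusted p of 0.05; called genes beyond 1.9 on the log2 scale are named). Precursor genes spread from PENK at -1.27 to TRH at 6.88, and the receptor list holds CRHR2 at -4.29.

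Among other neuropeptide receptor genes, 9 of the 35 found were tested, of which 3 rose, 1 fell and 5 did not pass. Their median log2 difference was -0.90, and its sign depended on the filter. It was -1.04 without a low-count filter and 0.70 with a filter of 5 CPM in 3 libraries. The tested gene that was called lower was CRHR2, the receptor for urocortins, relatives of corticotropin-releasing hormone. It stood at 267, 271 and 268 CPM in fetuses and at 8.70, 6.38 and 26.0 CPM in lambs, a mean 19.6 times as high in fetuses. All lambs lay far below all fetuses, and the log2 difference was -4.29 ± 0.52 (edgeR adjusted p = 0.000607). The precursor genes of its ligands, UCN, UCN2 and UCN3, had at most 3 counts in any library. HCRTR1, an orexin receptor gene, rose from 2.27 ± 0.359 to 11.9 ± 3.28 CPM (log2 difference 2.38 ± 0.26). NTSR2, a neurotensin receptor gene, rose from 2.25 ± 0.599 to 7.01 ± 0.760 CPM (1.64 ± 0.25), and NMUR1, a neuromedin U receptor gene, from 0.712 ± 0.210 to 2.16 ± 0.523 CPM (1.60 ± 0.37). Receptor genes under the filter went both ways. NPBWR1 had 61 counts in fetuses and 15 in lambs, and GALR3 22 and 5, whereas NMUR2 had 6 and 18 and SSTR1 10 and 19.

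Of the genes that make and store peptides, 5 of 10 were tested, 0 rose, 1 fell and 4 did not pass. CPE and PAM, which trim and amidate peptides and act on many secreted proteins, were at 51.6 ± 8.23 and 322 ± 23.5 CPM in lambs without passing the test. PCSK1 and PCSK2, the convertases of dense-core vesicles, had 0 to 2 counts in each lamb library. CHGA, a granule protein gene, fell by 1.24 ± 0.34 (edgeR adjusted p = 0.0197), and this call was lost without fetal library 2 and with library totals alone, where the adjusted p was 0.0807.

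Of 9 tested peptidase genes, 3 rose, 1 fell and 5 did not pass (median log2 difference 0.19). ANPEP, a membrane aminopeptidase gene, rose from 32.8 ± 15.5 to 141 ± 29.9 CPM (log2 difference 2.10 ± 0.35). On the log2 scale the carboxypeptidase M gene, whose symbol is also CPM, rose by 1.99 ± 0.42, and FAP, a fibroblast protease gene, by 0.81 ± 0.17. THOP1, a cytosolic peptidase gene, fell by 2.03 ± 0.14. MME, which encodes neprilysin, an enzyme that breaks down substance P, was at 33.7, 14.3 and 56.1 CPM in fetuses and 73.6, 56.7 and 111 CPM in lambs. Its stages did not overlap, as in 57.7% of all tested genes, and the log2 difference of 1.21 ± 0.46 did not pass (edgeR adjusted p = 0.0641).

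Of 19 genes that couple such receptors to the cell, 4 rose, 5 fell and 10 did not pass (median log2 difference 0.11), beside 44.7% of all tested genes called. PLCB1 encodes a phospholipase C through which Gq-coupled receptors such as those of tachykinins signal. It fell from 72.9 ± 8.42 to 14.8 ± 2.25 CPM (log2 difference -2.30 ± 0.15, edgeR adjusted p = 7.22e-05). Its relatives PLCB2, PLCB3 and PLCB4 did not pass, with log2 differences of 0.56, -0.0 and 0.07. Neither did the Gq subunit genes GNAQ (-0.24) and GNA11 (0.11). The fall of PLCB1 was thus not shared by the other genes of this route in the list. GNAI1, a subunit of the inhibitory G protein through which NPY receptors signal, rose from 9.47 ± 1.36 to 38.0 ± 9.68 CPM (2.00 ± 0.21). Of the related subunit genes, GNAI3 rose by 0.60 ± 0.10. GNAI2 did not pass (0.14 ± 0.13), its mean going from 128 to 141 CPM. The receptor kinase gene ADRBK2 fell by 0.85 ± 0.17, a call lost with library totals alone (adjusted p = 0.12). RGS4, which shortens G protein signals, fell by 1.23 ± 0.37, and its call was lost in 5 alternatives, library totals alone and the omission of fetal library 1, fetal library 2, lamb library 1 or lamb library 3 (adjusted p up to 0.127).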

How the data were processed

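Reads were mapped by the authors to Ensembl gene models of sheep Oar v3.1 (release 74) in CLC Genomics Workbench 7.0, per the series' design text. The deposited columns used are read counts per gene and library and, for description, the authors' RPKM per library and their RPKM means; 2 RPKM columns that share the name of a fetal sample were not used, nor was a smaller table of the same genes. The sources used here do not say how multiply placed reads and strand were treated.

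Counts were compared in R 4.3.3 with edgeR 4.0.16 (filterByExpr with a minimum count of 10, TMM, quasi-likelihood F test, no covariates, Benjamini-Hochberg over 13624 genes, threshold 0.05). The same fit was run on simulated data in which a small share of genes changed, in both directions. The share called in the data was far larger, so that simulation did not probe the choice of scaling. The SE is the log2 difference divided by the root of F. Alternatives used limma 3.58.1 and DESeq2 1.42.0. Ratios of sparse counts carry exact 95% intervals from scipy 1.17.1, for counting error only.

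Members, 9 pathway lists and 18 marker lists were chosen with earlier results of these data known. Named were all members, up to 3 called genes of each list in its main direction and 1 in the other at 1 CPM or more, and the 5 genes nearest to TAC1; other genes were named after their values were seen.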

Additional observations from a re-analysis of the deposited data

Results flagged for a closer look

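TACR1, the substance P receptor gene, had a signal in the authors' RPKM columns that its counts do not show. Its mean RPKM was 8.38 in lambs, with 8.98, 7.53 and 8.64 in lamb libraries 1, 2 and 3, while each of these libraries held 0 TACR1 counts. At those RPKM values, 3 counts would need a gene of 19.4 to 25.0 bp, shorter than a 50 bp read. The reads behind the RPKM were not analysed here.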

How the results depend on the processing

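In 14 alternatives TAC1 kept its direction, with a log2 difference of 5.41 to 6.43, and the number of genes called lay between 4798 and 7057, against 6095. Leaving out 1 library gave 4798 to 5654 genes called, TAC1 at 5.41 to 6.24, and 2 to 3 of the other members called. The number of other members called was 1 with a filter of 5 CPM in 3 libraries, under which CALCRL alone of them was tested. Library totals alone made 79.3% of all calls higher in lambs, against 49.3% with TMM, ended the call of CALCRL and added NPY1R and VIPR2. None of the 5 tested members other than TAC1 changed direction in the alternatives that tested it. The replicate numbers come from the labels and link no animals. With the replicate block 5353 genes were called, TAC1 was at 5.83, and CALCRL (-0.94, adjusted p = 0.00583) and VIPR1 (-2.53, adjusted p = 0.00968) remained called. Deviations of same-numbered libraries correlated at 0.003, -0.116 and 0.046 across genes, and not every library correlated best with its own number. Depth limits NPY, TACR1, TACR2 and NPY5R, which were tested only without a low-count filter, with an edgeR adjusted p of 0.924, 0.421, 0.161 and 0.84.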

Other observations

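Fetal library 1 held counts of neuropeptide genes that the other libraries lacked. The somatostatin gene SST had 114 counts there, 0 in the other fetal libraries and 0, 0 and 1 in lambs. The cholecystokinin receptor genes CCKBR and CCKAR had 90 and 21 counts in fetal library 1, and 0 to 1 in each other library. PCSK2 and SCG2, a convertase and a granule protein gene of endocrine and nerve cells, had 40 and 34 counts there and at most 3 in each other library. TAC1 had 17 counts in fetal library 1 and 16 in fetal library 2. These genes were noticed after their values were seen. Fetal library 1 was also highest among fetuses for summed skeletal muscle markers, at 114 CPM against 19.3 and 43.8 CPM. The same held for urothelial markers, at 133 CPM against 52.5 and 39.6 CPM, and mesothelial markers, at 40.8 CPM against 15.7 and 13.8 CPM. The median log2 difference of the skeletal muscle list was -2.55, and 0.47 without fetal library 1. The part of other tissue in these counts was not tested.

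Among precursor genes under the low-count filter, GRP, the gastrin-releasing peptide gene, had 10, 2 and 7 counts in fetuses and 0 in each lamb, a rate at least 8.01-fold higher in fetuses against 3 counts over the lamb group. PMCH had 12 counts in fetuses and 1 in lambs, and PDYN, the dynorphin precursor gene, had 1 and 9.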
